A study of Mus musculus with 8 samples.

Results

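The genes of sterol and fatty acid synthesis were followed in mouse motor cortex bordering a cavity made by aspiration. SREBP regulators here means the genes of the SREBP transcription factors and of the proteins that control them. The rule names 35 genes: 18 enzymes of cholesterol synthesis, 5 SREBP regulators, the sterol transfer gene Stard4 and 11 genes of fatty acid synthesis. Of these, 34 had a row among the 17644 gene symbols of the table and all 34 passed the filter on low values. Hmgcs1 was not analysed here. Expression was measured by CAGE, which sequences and counts the capped 5' ends of transcripts, so that a gene's level does not scale with its length. The values are CPM (counts scaled to the same total in each library). Male C57BL/6NCrSlc mice, 11 weeks old at surgery, had cortical tissue removed by suction, and RNA was taken from tissue up to 1.0 mm from the cavity. In the 1-week group (4 samples) the brain was taken 1 week after the lesion, and in the no-delay group (4 samples) it was taken immediately. Both groups carried the cavity, so the comparison is between a cavity that was 1 week old and a fresh one. Libraries are called by their group and the short tag in their column name, and values of several libraries are given in the alphabetical order of these tags.

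Cholesterol is made from acetyl-CoA through mevalonate, isoprenoid diphosphates, squalene and lanosterol. The blood-brain barrier keeps out lipoprotein cholesterol, so the brain makes its own, in adult tissue mostly in astrocytes and in oligodendrocytes that build myelin. SREBP-2, the product of Srebf2, drives the sterol enzymes when membrane sterol is low, and SREBP-1, the product of Srebf1, is tied more to fatty acid synthesis. Scap carries both to the Golgi apparatus for cleavage, and the Insig proteins hold Scap back when sterol is plentiful. Srebf1 is also a known target of the liver X receptors (LXRs), nuclear receptors that respond to oxysterols.

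The libraries held 8278855 to 13998941 reads, and each member had 61 to 8573 reads in each library. Over all 14718 genes tested, limma called 3439 higher and 1971 lower at 1 week (threshold of 0.05 on the p adjusted by Benjamini-Hochberg), or 23.4% and 13.4% of the genes tested. The split was 2894 higher and 2663 lower with TMM scaling, 2873 and 2720 with median-of-ratios scaling, and 2464 and 3211 after quantile normalization. Over all genes the median change was 0.06 as deposited and -0.04 after that normalization, on the log2 scale. All log2 fold changes are 1 week over no delay, on the log2(CPM + 1) scale unless another setting is named. Those of edgeR and DESeq2 come from their own models of the reads, without the added 1, so they are not on the same scale. Every 1-week column carries the 3-base tag GCT and every no-delay column the tag CAC, so whatever that tag stands for and the time after the lesion cannot be told apart. Marker lists moved with the group: the summed CPM of 11 astrocyte markers was 4740 to 5443 at 1 week and 2335 to 2641 without delay, and that of 10 microglia markers 1767 to 2611 at 1 week and 499 to 506 without delay. Myelin markers (10 genes) summed to 2426 to 4081 CPM at 1 week and 1540 to 3478 CPM without delay, and neuron markers (9 genes) to 7273 to 7996 CPM at 1 week and 8027 to 9367 CPM without delay. In whole tissue, fewer cells of a type and less RNA per cell cannot be told apart.

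Of the 34 members measured, 19 were called, 4 of them higher and 15 lower, beside 36.8% of all genes tested called in either direction. The 1-week libraries were the 4 highest in 3 members and the 4 lowest in 13, beside 22.7% and 12.0% of all genes tested. Most of the decreases were among the sterol enzymes. Of the 17 measured, 10 were called lower at 1 week, 0 were called higher and 7 were not called, beside 13.4% of all genes tested called lower. In 9 of the 17 every 1-week library lay below every no-delay library. Their median log2 fold change was -0.33, and that of all genes was 0.06. At an unadjusted p under 0.05, 11 were lower and 1, Ebp, was higher. EdgeR and DESeq2 on the recovered reads called 11 lower and 0 higher.

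**Figure D1:**
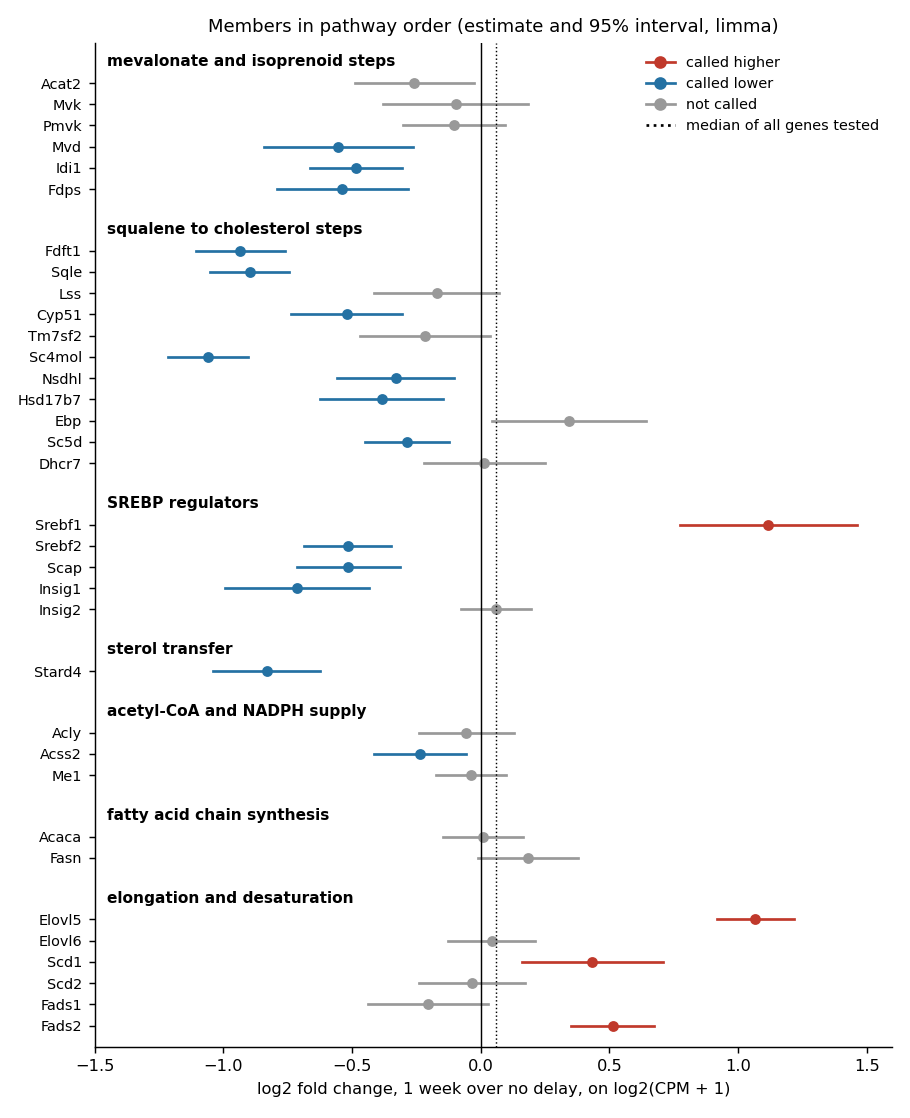
Log2 fold change of each of the 34 measured members (x axis, 1 week over no delay, on log2(CPM + 1)), grouped by role down the page, with points for estimates, bars for 95% intervals from limma and a dotted line at the median of all genes tested (0.06). The sterol steps lie mostly left of 0, down to -1.06 for Sc4mol, while Srebf1 (1.12) and Elovl5 (1.07) lie farthest right.

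In the mevalonate and isoprenoid part, 3 of 6 enzymes were called lower and 3 were not called, beside 13.4% of all genes tested called lower. Idi1, the isomerase that makes the allylic isoprenoid unit, stood at 27.1, 27.5, 31.7 and 29.7 CPM at 1 week and at 45.6, 38.9, 39.9 and 39.4 CPM without delay. The groups did not overlap, and the log2 fold change was -0.48 (standard error 0.08, limma adjusted p = 0.00062). Fdps, which joins isoprenoid units to farnesyl diphosphate, stood at 20.8 CPM ± 2.00 at 1 week and 30.9 CPM ± 5.13 without delay (SD, n = 4 each; log2 fold change -0.54, standard error 0.12, limma adjusted p = 0.00349). Mvd, which removes a carboxyl group from mevalonate diphosphate, stood at 8.06 CPM ± 0.644 and 12.4 CPM ± 2.29 (1 week and no delay, SD, n = 4 each; log2 fold change -0.55, standard error 0.13, limma adjusted p = 0.00616). In both genes every 1-week library was below every no-delay library. The other 3 act before these steps and had overlapping groups. The kinase gene Mvk had a log2 fold change of -0.10 (95% interval -0.38 to 0.18) and the kinase gene Pmvk of -0.10 (-0.30 to 0.10). Acat2, the cytosolic thiolase that starts the pathway, had -0.26 (-0.49 to -0.03, limma adjusted p = 0.0767). It was called lower in 7 of 19 alternatives. These were TMM, median-of-ratios or quantile scaling, edgeR and DESeq2, with adjusted p from 0.00969 to 0.0235. The others were the tag shared between the groups as a block (limma adjusted p = 0.0397) and leaving out the no-delay library tgacca (limma adjusted p = 0.0419). Acat2 has a close copy in the mouse, Acat3, with 8.40 CPM ± 2.32 at 1 week and 5.85 CPM ± 1.95 without delay (SD, n = 4 each), and tags could be split between them.

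The largest decreases were at the entry to the sterol branch and at the removal of methyl groups by Sc4mol. Sc4mol (current symbol Msmo1), the oxygenase that removes methyl groups from early sterols, stood at 92.7, 79.4, 81.0 and 80.2 CPM at 1 week and at 182, 163, 186 and 167 CPM without delay. Every 1-week library was well below every no-delay library, and the ratio of means was 0.478. Its log2 fold change of -1.06 (standard error 0.07, 95% interval -1.21 to -0.90, limma adjusted p = 4.2e-07) ranked 52 from the lowest among the 14718 genes tested. Fdft1, squalene synthase, which commits farnesyl diphosphate to sterols, stood at 30.8, 24.98, 29.7 and 26.2 CPM at 1 week and at 52.8, 53.2, 55.8 and 54.3 CPM without delay. The no-delay libraries were close together, the groups did not overlap, and the log2 fold change was -0.93 (standard error 0.08, limma adjusted p = 2.7e-06, rank 83 from the lowest). Sqle, squalene monooxygenase, a rate-limiting enzyme of the branch, stood at 27.2, 26.5, 27.4 and 26.1 CPM at 1 week and at 50.6, 47.0, 54.3 and 51.6 CPM without delay. The 1-week libraries were nearly equal, and the log2 fold change was -0.90 (standard error 0.07, limma adjusted p = 1.4e-06, rank 101 from the lowest). Fdft1 lies within 500 bases of or overlaps Ctsb on the opposite strand in the GENCODE M21 annotation. Ctsb was higher, at 1233 CPM at 1 week and 675 CPM without delay, and whether the counting used strand is not given in the sources used here.

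**Figure D2:**
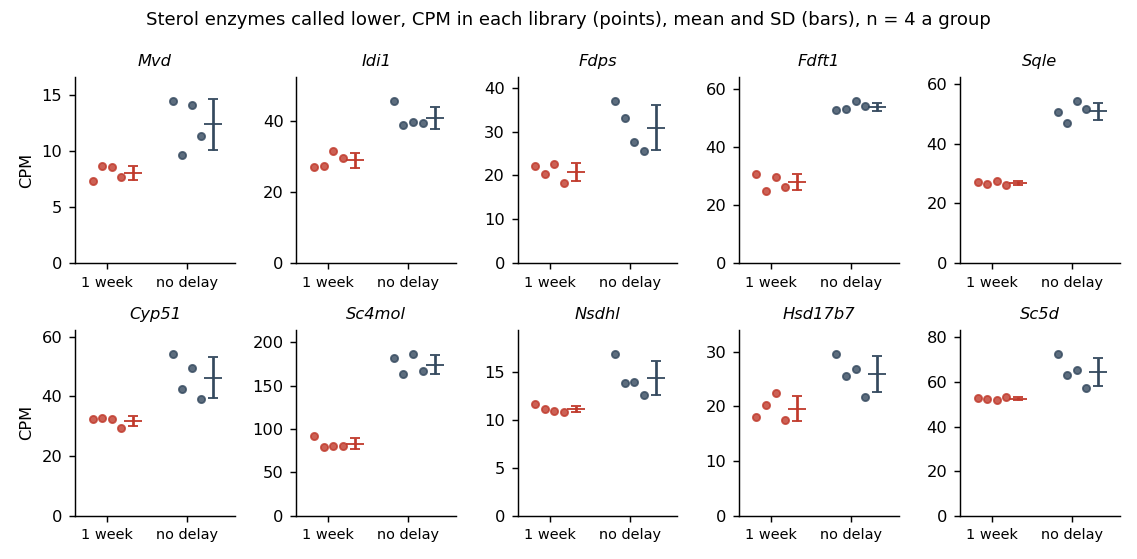
CPM (y axis, from 0) of the 10 sterol enzymes called lower, with a point for each library of the 1-week group on the left and of the no-delay group on the right, and bars for mean and SD (n = 4 a group). In all but Hsd17b7, whose highest 1-week value is 22.4 CPM and whose lowest no-delay value is 21.7 CPM, the groups do not overlap.

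The other 4 enzymes of the branch that were called had smaller decreases. Cyp51, the lanosterol demethylase, stood at 31.7 CPM ± 1.62 at 1 week and 46.3 CPM ± 6.79 without delay (SD, n = 4 each; log2 fold change -0.52, standard error 0.10, limma adjusted p = 0.00142). Nsdhl and Hsd17b7 act with Sc4mol in removing methyl groups, and had log2 fold changes of -0.33 (standard error 0.10, limma adjusted p = 0.0260) and -0.38 (standard error 0.11, limma adjusted p = 0.0163). Sc5d, a desaturase of the late pathway, stood at 52.8, 52.4, 51.7 and 53.4 CPM at 1 week and at 72.4, 63.2, 65.5 and 57.1 CPM without delay. Its groups did not overlap, with a log2 fold change of -0.29 (standard error 0.08, limma adjusted p = 0.0104). Leaving out the no-delay library acagtg, the 1-week library atcacg or the 1-week library cgatgt ended the Nsdhl call, and quantile normalization gave it a log2 fold change of -0.57 (adjusted p between 7.7e-04 and 0.0711 across the alternatives).

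The remaining 4 enzymes of the branch had overlapping groups and were not called. Lss, which folds squalene epoxide into lanosterol, had a log2 fold change of -0.17 (95% interval -0.41 to 0.07), and the sterol reductase gene Tm7sf2 of -0.21 (-0.47 to 0.04). Dhcr7, a reductase of the last steps, had 0.01 (-0.22 to 0.25). Ebp, the sterol isomerase, was the only sterol enzyme whose 95% interval lay wholly above 0. It stood at 23.6, 24.4, 22.5 and 17.2 CPM at 1 week and at 19.1, 19.3, 16.9 and 13.1 CPM without delay. In both groups the library tgacca was the lowest, and the log2 fold change was 0.34 (95% interval 0.04 to 0.64, limma adjusted p = 0.0704). Ebp was called higher in 3 of 19 alternatives: with library weights (adjusted p = 0.0367), without the 1-week library tgacca (adjusted p = 0.0165) and with the shared tag as a block. Across the alternatives its log2 fold change lay between 0.20 and 0.45 and its adjusted p between 0.0126 and 0.25.

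Promoter sequences are shown for 3 of the lowered enzymes and for the raised gene Elovl5. They are RefSeq sequences on the build GRCm38.p6, 180 bases that end just before the start of the transcript. Capitals mark matches to the CCAAT box, which the factor NF-Y binds beside SREBP at many sterol promoters, on either strand (CCAAT, or ATTGG for the reverse strand). They lie at chr8:64733579-64733758 (Sc4mol, minus strand), chr5:4104698-4104877 (Cyp51, minus strand), chr13:8885426-8885605 (Idi1, plus strand) and chr9:77917185-77917364 (Elovl5, plus strand).
Sc4mol: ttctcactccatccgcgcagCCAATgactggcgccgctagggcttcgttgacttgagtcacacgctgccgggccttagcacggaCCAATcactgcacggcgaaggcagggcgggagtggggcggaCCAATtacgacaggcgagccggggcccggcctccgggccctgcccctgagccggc
Cyp51: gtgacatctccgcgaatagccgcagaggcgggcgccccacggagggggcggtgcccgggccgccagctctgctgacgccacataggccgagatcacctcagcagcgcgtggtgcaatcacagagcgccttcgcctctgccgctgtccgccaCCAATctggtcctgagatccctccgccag
Idi1: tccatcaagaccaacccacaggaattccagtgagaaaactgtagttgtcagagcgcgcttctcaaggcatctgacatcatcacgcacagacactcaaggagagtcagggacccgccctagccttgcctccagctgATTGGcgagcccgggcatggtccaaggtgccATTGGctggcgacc
Elovl5: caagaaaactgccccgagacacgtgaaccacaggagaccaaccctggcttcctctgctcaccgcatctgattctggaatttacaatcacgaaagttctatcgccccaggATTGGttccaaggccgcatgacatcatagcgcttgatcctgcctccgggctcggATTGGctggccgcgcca
Matches began 160, 96 and 55 bases before the start in Sc4mol, 29 before it in Cyp51, 45 and 14 before it in Idi1, and 71 and 17 before it in Elovl5. Of the 34 members, 27 had promoters in the table, 36 in all, with 250 bases before and 50 after the start. The box was present in 10 of the 11 members called lower that had a promoter, in 2 of the 3 called higher and in 10 of the 13 not called, and in at least 1 promoter of 41.1% of the 27025 genes in the table. Counted by promoter, it was in 23 of the 36 of the members and in 37.4% of all 32851. A core of the sterol regulatory element, TCACNCCAC on either strand, was in 0 of the 36 promoters of members and in 1.24% of all promoters. Absence says only that these letters are not in this window, and a match is not evidence of binding.

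Among the regulators, Srebf2, Scap and Insig1 fell and Srebf1 rose. Srebf2 stood at 97.6, 87.0, 90.0 and 87.9 CPM at 1 week and at 140, 140, 128 and 113 CPM without delay. The groups did not overlap, and the log2 fold change was -0.52 (standard error 0.08, limma adjusted p = 0.00025). Scap stood at 42.0, 38.4, 45.6 and 49.6 CPM at 1 week and at 68.7, 62.7, 65.5 and 55.3 CPM without delay, also without overlap (log2 fold change -0.51, standard error 0.09, limma adjusted p = 9.0e-04). Insig1, itself a gene that SREBPs induce, stood at 39.7, 32.7, 39.3 and 33.8 CPM at 1 week and at 80.7, 51.1, 53.5 and 59.1 CPM without delay. The no-delay library acagtg was the highest by a wide margin, and all 1-week libraries were below all no-delay ones (log2 fold change -0.71, standard error 0.13, limma adjusted p = 9.5e-04). Its paralog Insig2 had overlapping groups, at 85.1 CPM ± 3.30 and 81.7 CPM ± 4.19 (1 week and no delay, SD, n = 4 each; 95% interval of the log2 fold change -0.08 to 0.20).

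Srebf1 stood at 37.3, 35.5, 41.9 and 42.7 CPM at 1 week and at 24.0, 20.03, 15.5 and 12.6 CPM without delay. Every 1-week library was above every no-delay library, the means stood in a ratio of 2.18, and the gene had a log2 fold change of 1.12 (standard error 0.16, 95% interval 0.78 to 1.46, limma adjusted p = 1.5e-04). The ratio of Srebf1 to Srebf2 within a library was 0.382 to 0.486 at 1 week and 0.111 to 0.171 without delay. The table has 1 value for a gene and RefSeq gives 3 starts for Srebf1, so the SREBP-1a and SREBP-1c transcripts cannot be told apart here. Rai1, the neighbour of Srebf1 on the opposite strand, was lower, at 31.0 CPM at 1 week and 42.8 CPM without delay. Stard4, which moves cholesterol between membranes and is a target of SREBP-2, stood at 22.7, 17.3, 21.9 and 19.1 CPM at 1 week and at 37.7, 35.7, 38.5 and 34.6 CPM without delay. It fell without overlap (log2 fold change -0.83, standard error 0.09, limma adjusted p = 2.8e-05, rank 137 from the lowest).

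The fatty acid genes had no common direction. Of 11, 3 were higher, 1 was lower and 7 were not called, beside 23.4% and 13.4% of all genes tested, with a median log2 fold change of 0.01. The genes that supply acetyl-CoA and NADPH were near 0: Acly (ATP citrate lyase) had a log2 fold change of -0.06 (95% interval -0.24 to 0.13) and Me1 (malic enzyme) of -0.04 (-0.17 to 0.10). Acss2, which makes acetyl-CoA from acetate, stood at 67.5 CPM ± 4.79 at 1 week and 79.8 CPM ± 7.87 without delay with overlapping groups (SD, n = 4 each; log2 fold change -0.24, standard error 0.08, limma adjusted p = 0.0393). That call was lost when any library other than the no-delay library cgatgt or the 1-week library tgacca was left out, and across the alternatives its adjusted p lay between 0.00679 and 0.107.

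Neither gene of chain synthesis was called. Acaca, the acetyl-CoA carboxylase that commits carbon to fatty acids, stood at 55.7 CPM ± 1.35 and 55.5 CPM ± 4.70 (1 week and no delay, SD, n = 4 each; 95% interval of the log2 fold change -0.15 to 0.17). Fasn, the fatty acid synthase, stood at 66.1, 75.6, 81.7 and 74.9 CPM at 1 week and at 75.1, 67.5, 58.1 and 61.8 CPM without delay. The groups overlapped through the no-delay library acagtg, with a log2 fold change of 0.18 (95% interval -0.01 to 0.38, limma adjusted p = 0.129). Without that library Fasn was called higher (adjusted p = 0.0427).

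**Figure D3:**
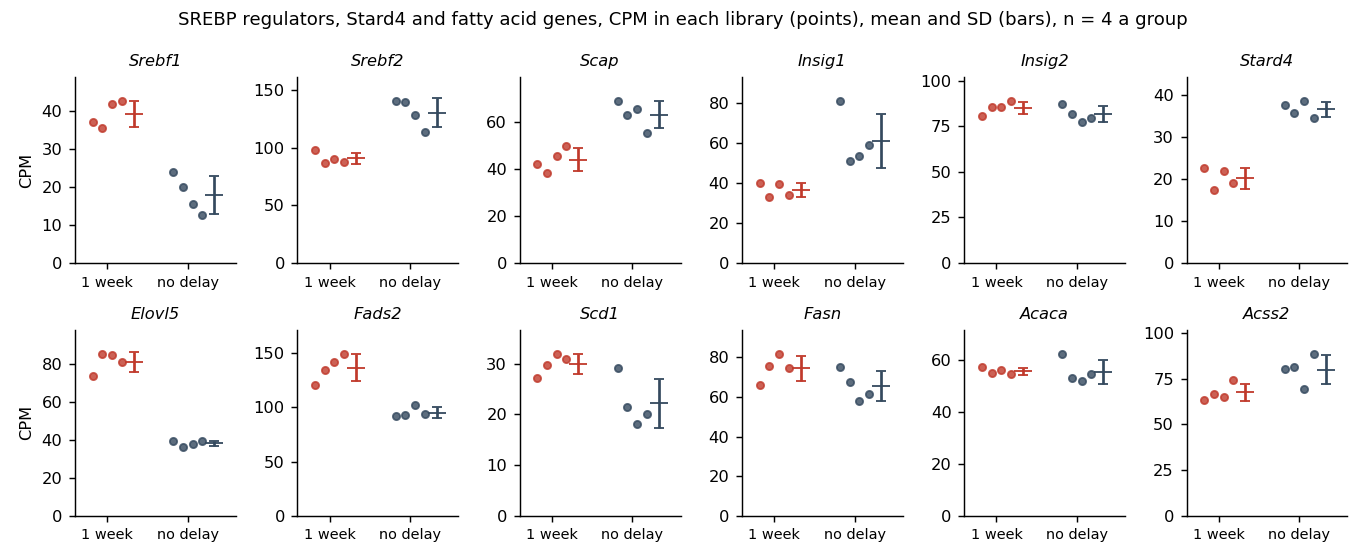
CPM (y axis, from 0) of the 5 SREBP regulators, Stard4 and 6 fatty acid genes, with a point for each library of the 1-week group on the left and of the no-delay group on the right, and bars for mean and SD (n = 4 a group). Srebf1, Elovl5 and Fads2 lie above the no-delay libraries at 1 week, and Srebf2, Scap, Insig1 and Stard4 lie below them.

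The 3 fatty acid genes called higher, of 11, were among the 6 of elongation and desaturation, beside 23.4% of all genes tested called higher. The other 3 of the 6 were not called. Elovl5, which lengthens polyunsaturated fatty acids, stood at 74.0, 85.3, 84.7 and 81.3 CPM at 1 week and at 39.4, 36.3, 37.9 and 39.3 CPM without delay. All 1-week libraries were far above all no-delay ones, the means stood in a ratio of 2.13, and the gene had a log2 fold change of 1.07 (standard error 0.07, 95% interval 0.92 to 1.22, limma adjusted p = 3.0e-07). Fads2, a desaturase of the same fatty acids, stood at 120, 134, 142 and 149 CPM at 1 week and at 91.6, 92.5, 102 and 93.6 CPM without delay. Its groups did not overlap (log2 fold change 0.51, standard error 0.07, limma adjusted p = 1.8e-04). Scd1, which makes monounsaturated fatty acids, stood at 27.2, 29.8, 31.9 and 31.0 CPM at 1 week and at 29.1, 21.5, 18.1 and 20.1 CPM without delay. The no-delay library acagtg reached into the 1-week range, the log2 fold change was 0.43 (standard error 0.13, limma adjusted p = 0.0168), and leaving out the no-delay library cgatgt ended the call (limma adjusted p = 0.0524).

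Their relatives in the same roles were not called. Elovl6, which lengthens saturated fatty acids, had a log2 fold change of 0.04 (95% interval -0.12 to 0.21), and Scd2, the main stearoyl-CoA desaturase of mouse brain, of -0.03 (-0.24 to 0.17). Fads1, the desaturase that acts after Fads2 in the same pathway, stood at 139, 112, 135 and 165 CPM at 1 week and at 150, 154, 146 and 182 CPM without delay. The groups overlapped, and the log2 fold change was -0.21 (-0.44 to 0.03, limma adjusted p = 0.154). Without the 1-week library tgacca, Fads1 was called lower (adjusted p = 0.0293). Whether the called and uncalled relatives differ from each other was not tested.

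**Figure D4:**
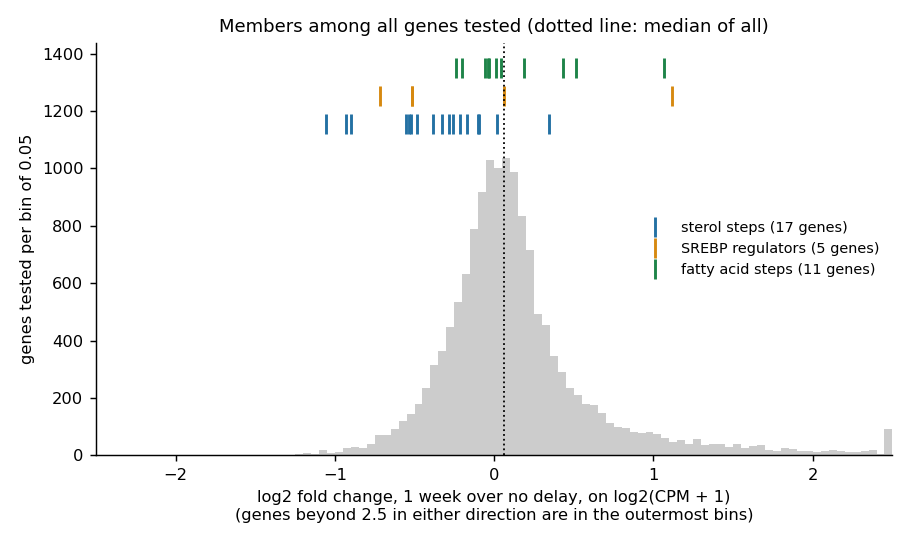
Number of genes tested per bin of log2 fold change (grey, y axis; x axis 1 week over no delay on log2(CPM + 1), with genes beyond the axis in the outermost bins) and the members as ticks above it, by class. The sterol steps lie from -1.06 to 0.34 with 15 of 17 below 0, while the fatty acid steps lie from -0.24 to 1.07 around the median of all genes (dotted, 0.06).

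Summed over genes, the 17 sterol enzymes stood at 455, 438, 457 and 414 CPM at 1 week and at 704, 628, 677 and 598 CPM without delay, a ratio of means of 0.677. The groups did not overlap. The 11 fatty acid genes, of which Scd2 held the largest part, stood at 1474, 1311, 1404 and 1439 CPM at 1 week and at 1459, 1369, 1245 and 1350 CPM without delay, and overlapped. The neuron marker sum had a ratio of means of 0.886, and 2 of the 9 markers, Rbfox3 and Syt1, were called lower, beside 13.4% of all genes tested. The other 7 neuron markers were not called. Only 6 of the 9 had a log2 fold change below 0, and the highest was 0.11. Per 1000 CPM of neuron markers, the sterol sum was 55.2 to 57.3 CPM at 1 week and 70.7 to 76.1 CPM without delay. Of the astrocyte markers 11 of 11 were called higher, and of the myelin markers 6 of 10, beside 23.4% of all genes tested. The other 4 myelin markers were not called, and 1 of the 10 had a log2 fold change below 0 (-0.47). Per 1000 CPM of astrocyte markers, the sterol sum was 79.7 to 96.0 CPM at 1 week and 256 to 271 CPM without delay. Gfap, 1 of those markers, stood at 1174 CPM ± 288 at 1 week and 31.4 CPM ± 5.02 without delay (SD, n = 4 each). Per 1000 CPM of myelin markers, the sterol sum was 107 to 171 CPM at 1 week and 202 to 388 CPM without delay. The part of the changed cell makeup in the levels of single members was not tested.

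**Figure D5:**
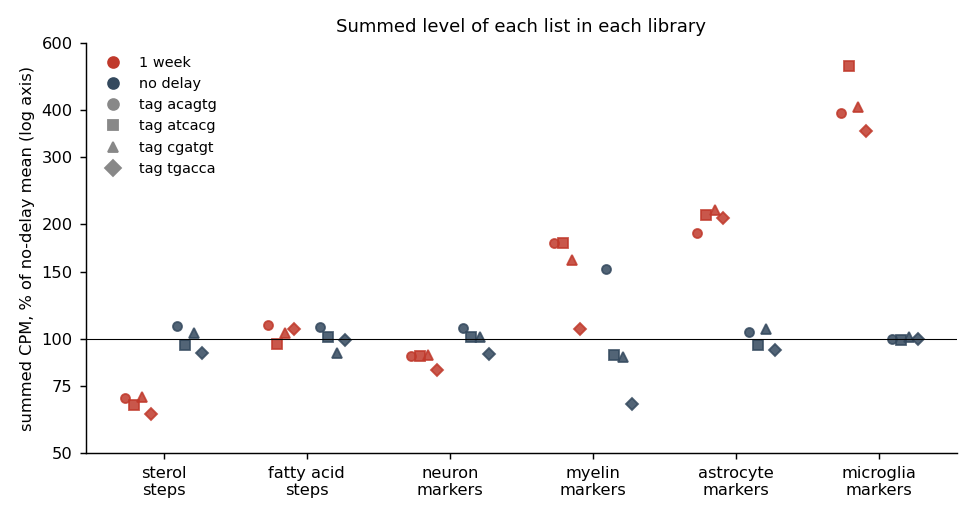
Summed CPM of each list in each library as a percentage of its no-delay mean (y axis, log scale), with the 1-week libraries left and the no-delay libraries right in each column and symbols for the column tags. The sterol steps lie at 63.6% to 70.2% at 1 week and the neuron markers at 82.7% to 91.0%, while the astrocyte and microglia markers lie above all their no-delay values.

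A list of 23 other genes of these pathways held 9 called higher, 3 called lower and 11 not called, with a median log2 fold change of 0.16. Among all genes tested, 23.4% were called higher and 13.4% lower, so the share called lower was near that of all genes. The largest changes were increases in fatty acid and glycerolipid genes. Gpam, which starts triglyceride and phospholipid assembly, stood at 99.9 CPM ± 14.7 at 1 week and 35.6 CPM ± 2.92 without delay (SD, n = 4 each; log2 fold change 1.45, standard error 0.10, limma adjusted p = 6.7e-07). Elovl1, an elongase of very long chains, stood at 13.9 CPM ± 2.20 and 5.49 CPM ± 1.53 (1 week and no delay; log2 fold change 1.22, standard error 0.17, limma adjusted p = 1.2e-04), and Thrsp, a lipogenic protein gene that SREBP-1 and LXR can induce, at 54.7 CPM ± 3.06 and 29.4 CPM ± 6.95 (1 week and no delay; log2 fold change 0.90, standard error 0.13, limma adjusted p = 2.3e-04). The 3 called lower were Fads3, Aacs and Tecr. Fads3 was called in all 19 alternatives. Aacs and Tecr each lost the call in 6 of the 19, with adjusted p up to 0.0842 and 0.101. Mbtps1 and Mbtps2, the proteases that cleave SREBPs, were not called, with log2 fold changes of 0.10 (95% interval -0.06 to 0.26) and -0.07 (-0.24 to 0.10).

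Genes of cholesterol turnover, storage and the LXRs were mostly higher: of 14, 11 were called higher, 0 lower and 3 were not called, beside 23.4% of all genes tested called higher and 13.4% called lower, with a median log2 fold change of 0.84. At an unadjusted p under 0.05, 12 were higher and 0 lower, and edgeR and DESeq2 each called 10 higher and 0 lower. Of the 11, Cyp7b1 lost its call in 13 of the 19 alternatives, edgeR and DESeq2 among them, with adjusted p up to 0.377. Nr1h3 lost its call with quantile normalization. The 3 not called were Nr1h2, which encodes LXR beta, Cyp46a1, which turns cholesterol over in neurons, and Nceh1, a cholesteryl ester hydrolase gene. Abca1, the exporter of cholesterol to apolipoproteins and an LXR target, stood at 129, 201, 159 and 149 CPM at 1 week and at 22.3, 18.8, 21.4 and 16.9 CPM without delay. The groups lay far apart (ratio of means 8.05, log2 fold change 2.94, standard error 0.13, limma adjusted p = 2.4e-08). Npc2, a lysosomal cholesterol carrier, stood at 152 CPM ± 30.4 at 1 week and 52.3 CPM ± 9.11 without delay (SD, n = 4 each; log2 fold change 1.52, standard error 0.15, limma adjusted p = 7.1e-06). Ch25h, which makes an oxysterol in activated macrophages, stood at 5.49 CPM ± 2.44 at 1 week and 0.472 CPM ± 0.217 without delay (SD, n = 4 each; log2 fold change 2.05, standard error 0.28), where 3 reads are worth 0.214 to 0.362 CPM. Its no-delay values of 0.20 to 0.73 CPM were all below the filter minimum of 1 CPM. Ch25h thus passed the filter only through the 1-week libraries, and its call among the 11 rests on the group where it was high. With so few reads the Ch25h value depended on the setting: the log2 fold change lay between 0.91, with a pseudocount of 5, and 3.47, by DESeq2, over 14 alternatives. In the others (a CPM minimum of 5, or leaving out any 1-week library) Ch25h did not pass the filter. Several genes of this list are made by microglia and macrophages, whose markers rose in the same libraries (10 of 10 microglia markers called higher, beside 23.4% of all genes tested). Of 6 blood leukocyte markers 2 were tested: Lyz2, which microglia and macrophages can also make, stood at 162 CPM ± 81.1 at 1 week and 5.50 CPM ± 1.22 without delay (SD, n = 4 each), and S100a8, a neutrophil gene, at 1.97 CPM ± 1.26 at 1 week and 4.76 CPM ± 4.63 without delay, and was not called. The part of those cells in the change was not tested.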

How the data were processed

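CAGE libraries of total RNA were read from a single end over 75 nt, per the labels' protocols, and the submitters' processing notes name the aligner BWA 0.5.9 and the mouse build mm9. The rule that assigned tags to genes is not given in these sources. The deposited table holds CPM values for 17644 gene symbols in 8 columns, scaled by the authors to a common total, with no coordinates. Column names give the group but no replicate number, and 0 columns were left out. The labels list separate samples without tying each to an animal, so p-values measure the spread between samples, which may be technical. Chi-square per degree of freedom between libraries of a group averaged 8.36 to 15.9 over genes, with medians of 1.19 to 2.63.

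Whole reads were recovered from the CPM steps (100% of values within 0.1 reads). Groups were compared with limma 3.58.1 in R 4.3.3, with eBayes fitted to a mean-variance trend, on log2(CPM + 1) values of the 14718 genes with 1 CPM or more in at least 4 libraries. It was 2-sided, adjusted by Benjamini-Hochberg over all genes tested, and called at 0.05. EdgeR 4.0.16 and DESeq2 1.42.0 on the recovered reads were alternatives, as were other pseudocounts, filters, scalings, library weights and leaving out each library. The procedure was tested on simulated reads. Precision covers counting error only where reads are named, as tags lacking molecular identifiers need not come from separate molecules. Promoters came from RefSeq on GRCm38.p6, not the build of the files, and were matched by symbol, Sc4mol through its RefSeq synonym. The genes named are all members and, in each other list, up to 3 called genes with the largest absolute log2 fold change. Names outside this rule (Mbtps1, Mbtps2, Fads3, Aacs, Tecr, Nr1h2, Nr1h3, Cyp46a1, Cyp7b1, Nceh1, Rbfox3, Syt1, Gfap, Lyz2, S100a8, Acat3, Ctsb and Rai1) were chosen after their values were seen. The members and lists were chosen with earlier results of these data known, and some other enzymes of the pathway are not reported here. Reads equal in every library to those of another gene were found for 0 members, and 14 members have a measured neighbour that overlaps them or lies within 500 bases.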

Additional observations from a re-analysis of the deposited data

Results flagged for a closer look

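Of 68 groups of 4 libraries (34 members in each group), 6 held a library far from the other 3, with a gap above Dixon's 95% critical value. Chance flags about 1 in 20 groups. At 1 week, Sc4mol was high in the library acagtg, at 92.65 CPM against 79.4 to 81.0 CPM in the others, which is still below every no-delay value. The 1-week library tgacca was low for Acat2 (16.78 CPM against 20.8 to 21.4 CPM) and for Cyp51 (29.32 CPM against 32.4 to 32.7 CPM). Without delay, the library acagtg was high for Idi1 (45.59 CPM against 38.9 to 39.9 CPM) and for Me1 (58.5 CPM against 53.8 to 54.5 CPM), and the library cgatgt was high for Tm7sf2 (19.21 CPM against 13.7 to 14.5 CPM).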

How the results depend on the processing

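No paired analysis was possible because the columns carry no replicate number. With the short column tag shared by a 1-week and a no-delay library as a block, 5470 genes were called, against 5410 without it. Same-tag libraries correlated at -0.03 to 0.18 in their deviations and other pairs at -0.16 to 0.09. Of the 19 members called, 16 were called in all 19 alternatives and 0 changed sign. The exceptions were Nsdhl, Acss2 and Scd1, each lost only when a library was left out. The count of sterol enzymes called lower was 9 to 11 over the omissions and 14 with quantile normalization, which added Acat2, Mvk, Lss and Tm7sf2. The count called higher, 0 in the main result, was 1 (Ebp) with library weights and with the shared-tag block, and 0 to 1 over the omissions. The sterol median of -0.33 was -0.51 with quantile normalization, -0.42 with edgeR and -0.43 with DESeq2, and -0.38 to -0.255 over the omissions. The fatty acid median of 0.01 was -0.0522 with TMM scaling, -0.0514 with edgeR, -0.0558 with median-of-ratios scaling and -0.0607 with DESeq2, and -0.0196 to 0.0668 over the omissions, and the count of fatty acid genes called lower was 0 to 2 over them. Over all genes, 3211 were called lower with quantile normalization against 1971. The causes of these shifts were not tested. Dhcr7, Insig2, Acly, Acaca, Elovl6 and Scd2, none of them called, changed sign in at least 1 alternative.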

Other observations

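In each group most of the lowest values of the sterol enzymes lay in 1 library, as did most of the highest values without delay. The same counts were not made over all genes tested, so a shift of the whole library cannot be told apart from a shift of these genes. Without delay, the library acagtg held the highest value of 11 of the 17 sterol enzymes and of 10 of the 10 myelin markers, and the library tgacca held the lowest value of 11 of 17 and of 10 of 10. At 1 week, the library tgacca was again the lowest, in 10 of 17 sterol enzymes and 10 of 10 myelin markers, while the highest values were spread over all 4 libraries (4, 4, 7 and 2 of 17). Between the groups the means of the 2 sums went opposite ways. The myelin marker sum averaged 3562 CPM at 1 week (2426 to 4081) and 2284 CPM without delay (1540 to 3478), and its groups overlapped. The sterol sum averaged 441 CPM at 1 week (414 to 457) and 652 CPM without delay (598 to 704), without overlap. Among the fatty acid genes, the no-delay library acagtg held the highest value of 8 of 11.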
